A study of Mus musculus with 6 samples.

Results

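The 8 genes described here encode proteins of the lysosome: *Cd68*, *Grn*, *Psap*, *Npc2*, *Galc*, *Gaa*, *Naglu* and *Cd63*. They were chosen by name, and their members were all probe sets of the value table whose single annotated symbol was 1 of the 8. This gave 88 of 58919 tested probe sets, in 8 of 5017 named genes. Each gene was read by 3 to 20 probe sets, and 0 further probe sets carried a member's symbol together with another gene's. Of the 88, 87 had a mean signal above the dimmest 1 in 3 of tested probe sets, the exception being probe set 10401986 of *Galc*.

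Total RNA of whole mouse brain was hybridised to 6 Affymetrix arrays, 3 labelled control and 3 labelled knockout. The control mice had the genotype APPPS1-FVB, which carries transgenes for mutant human APP and mutant presenilin under a *Thy1* promoter active in neurons, on the inbred FVB background. The knockout mice had the genotype APPPS1-FVBxABCC1, so both groups carried the amyloid transgenes and no group without them was analysed here. *Abcc1* encodes an exporter of glutathione conjugates. Age, sex and batch are not in the labels. It is not said whether each array is a different animal, and p-values therefore cover no more than the spread among these arrays, which may be technical. *Abcc1* was not analysed here, so the labels could not be checked on the targeted gene. The tissue label was checked on neuronal markers: 4 of the 17 fixed were measured, and their mean log2 signal was between 10.28 and 10.34 on every array. Such a check cannot tell whole brain from a part of the brain.

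Lysosomes break down lipids, glycans and proteins with acid hydrolases, and their soluble enzymes depend on activator and lipid-transfer proteins. In brains with amyloid plaques, lysosomal genes are known to be high in the microglia that surround the plaques, while most of the hydrolases are made by neurons and all glia. The comparison asks whether loss of *Abcc1* on the amyloid background goes with other levels of these transcripts.

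No lysosomal gene passed the test. Of the 88 probe sets, 58 were lower and 29 higher in the knockout, where 47.2% of all probe sets were lower, and 0 had a limma adjusted p below 0.05 over all tested probe sets, where 0.00509% of all probe sets did. At an unadjusted p below 0.05 there were 2 lower and 1 higher, where 2.94% and 4.75% of all probe sets were. By the mean of all its probe sets, 7 of the 8 genes were lower in the knockout, and 0 of 8 passed, with 0% of all 5017 genes. The median log2 difference of the 8 gene means was -0.07, against -0.004 over all genes, of which 51.4% were lower. After quantile normalization or median centring all 8 were lower, with *Gaa* at -0.016 and -0.006. The median over all genes was then -0.017 and -0.024. Of the 8 gene means 1, that of *Npc2*, was lower at an unadjusted p below 0.05, where 6.12% of all genes were, and its limma adjusted p of 0.252 was the smallest of the 8.

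**Figure D1:**
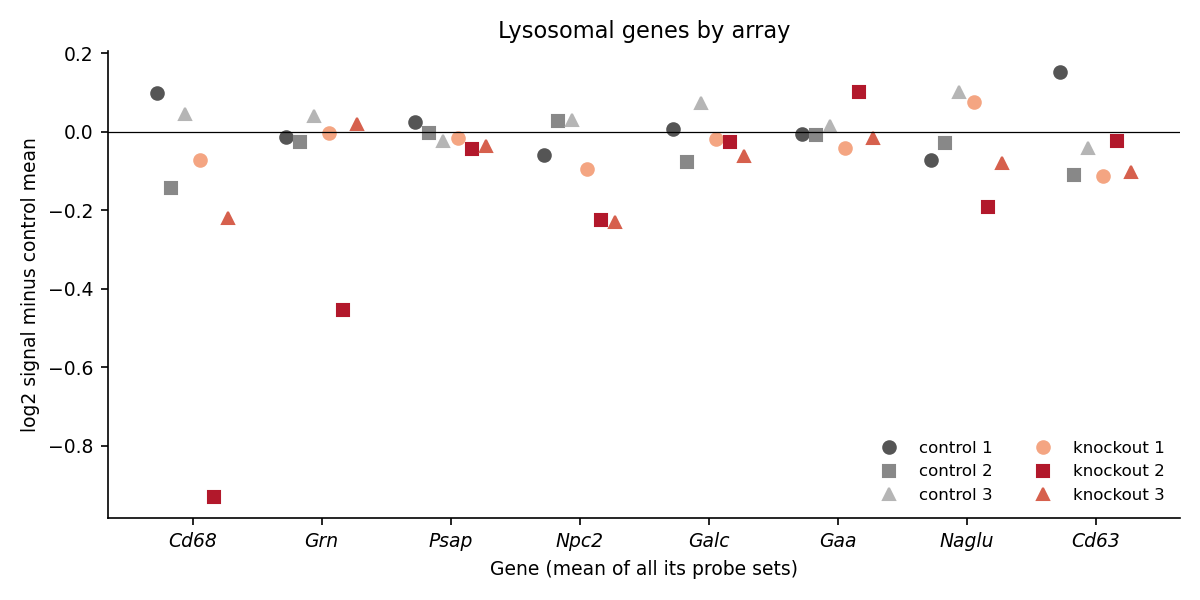
Mean log2 signal over all probe sets of each gene on each array, minus that gene's control mean. Points are single arrays (grey, controls; red, knockouts), and knockout 2, the dark red square, lies below all other arrays in Cd68 at 6.68 and in Grn at 8.89.

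*Cd68*, a heavily glycosylated membrane protein of lysosomes in microglia and other phagocytes, had the largest difference of the 8. Over the mean of its 8 probe sets the log2 signal was 7.71, 7.47 and 7.66 in controls 1 to 3, and 7.54, 6.68 and 7.39 in knockouts 1 to 3. Knockout 2 was the lowest array, knockout 1 lay within the range of the controls and knockout 3 just below it, so the groups overlapped. The log2 difference was -0.41 (SE 0.20), or 75.4% of the control level, with a limma adjusted p of 0.412 and a 95% interval from -0.88 to 0.06. The SD was 0.13 (n = 3) in controls and 0.46 (n = 3) in knockouts. The difference was -0.15 (SE 0.088) without knockout 2, and between -0.58 and -0.36 without any other single array.

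The low value of knockout 2 was seen at all probe sets of *Cd68*, though it was slight at the dimmest. At probe set 10387538, its brightest, the log2 signal was 9.03, 8.71 and 8.98 in controls and 8.63, 7.76 and 8.69 in knockouts. At 10387539 the controls had 7.40, 7.28 and 7.66 and the knockouts 7.26, 6.40 and 6.99. All 8 probe sets were lower in the knockout, by -0.56 to -0.06 on the log2 scale, and knockout 2 was the lowest of the 6 arrays at all 8, where it was the lowest at 15.8% of all probe sets. The probe sets of a gene read the same RNA and are not replicates. At 3 of the 8 (10387537, 10387538 and 10387539) all 3 knockouts lay below all 3 controls, where 5.52% of all probe sets did, and their adjusted p was between 0.649 and 0.674. The smallest difference, -0.06, was at 10387544, which was also the dimmest, with a mean of 6.11.

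*Grn* encodes progranulin, a secreted protein that is also carried to lysosomes and cut there into granulins. The mean of its 12 probe sets was 9.33, 9.32 and 9.39 in controls and 9.34, 8.89 and 9.37 in knockouts. Knockouts 1 and 3 were inside the range of the controls, and knockout 2 alone was below it. The log2 difference came to -0.15 (SE 0.12, limma adjusted p = 0.606), and it was 0.007 (SE 0.052, 95% interval from -0.12 to 0.13) without knockout 2. All 12 probe sets were lower in the knockout with all arrays, and 5 of 12 without knockout 2. Knockout 2 was the lowest array at all 12.

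The last probe sets of *Grn* by ID had the largest differences. At 10381598 the controls had 8.42, 8.43 and 8.50 and the knockouts 8.27, 7.67 and 8.27, a log2 difference of -0.38 (SE 0.18, adjusted p = 0.665). At 10381599 the difference was -0.37. At both of these, 2 of the 12 probe sets, all knockouts lay below all controls, as at 5.52% of all probe sets. At 10381590 the difference was -0.003. At the brightest, 10381594, the controls had 10.91, 10.88 and 10.90 and the knockouts 10.92, 10.55 and 10.84. The test for unequal differences among the probe sets of a gene (limma diffSplice, F test) gave *Grn* an adjusted p of 1.

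**Figure D2:**
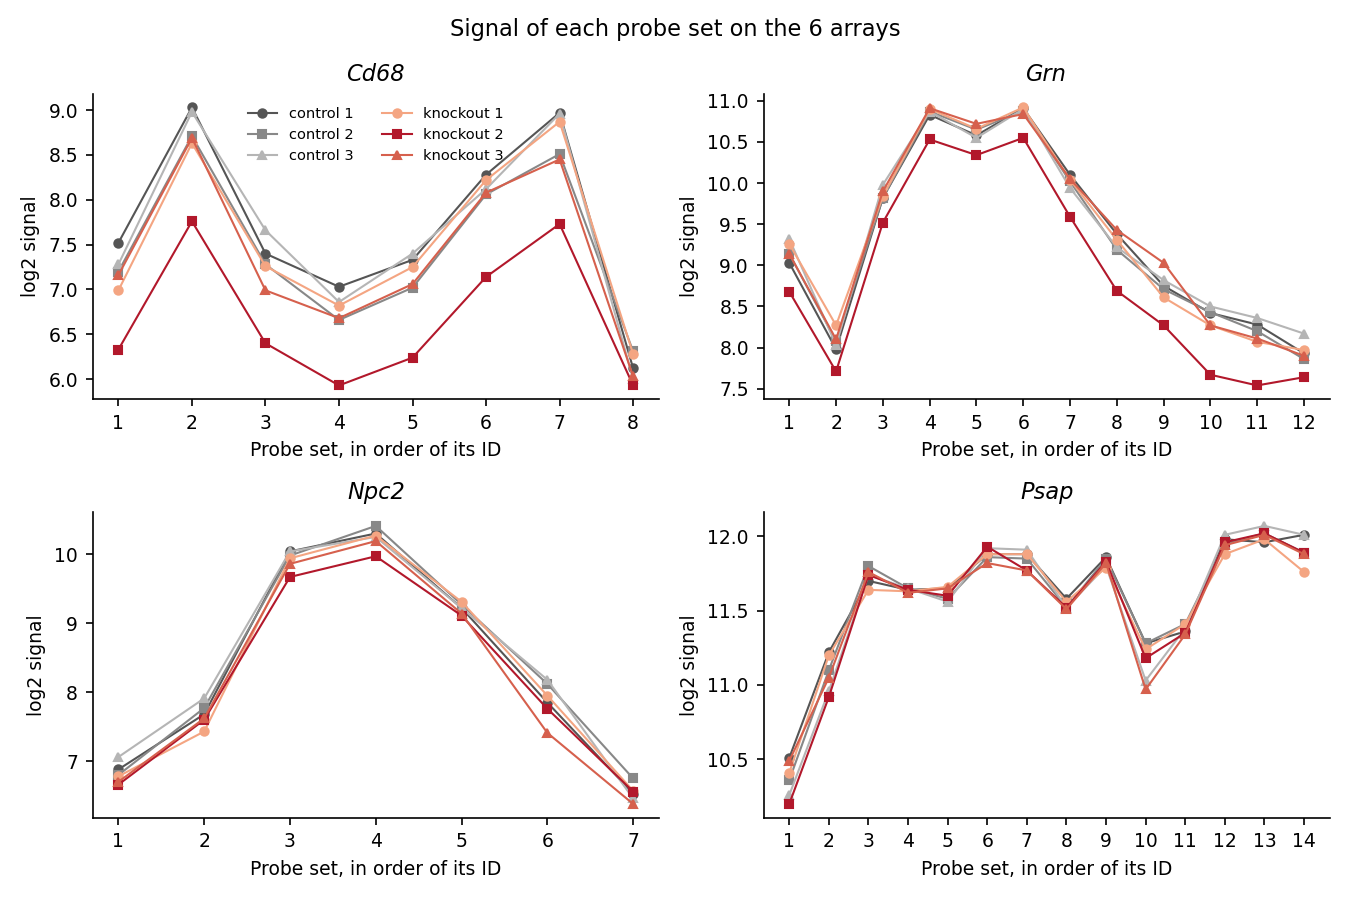
Log2 signal of each probe set of Cd68, Grn, Npc2 and Psap on the 6 arrays, in the order of probe set IDs. The line of knockout 2 (dark red squares) runs below the others at all 8 probe sets of Cd68 and all 12 of Grn. In Psap the 6 lines lie close together at most probe sets, but at 10363431 they run from 10.20 in knockout 2 to 10.51 in control 1.

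Set against the other knockouts, knockout 2 was at 58.1% of the mean of knockouts 1 and 3 in *Cd68* (log2 difference -0.78) and at 72.7% in *Grn* (-0.46). Over all genes the median of this difference was 0.008. Of all genes, 0.159% had a larger drop than *Cd68* and 0.698% a larger drop than *Grn*. The other 6 genes had -0.19 (*Naglu*), -0.06 (*Npc2*), -0.02 (*Psap*), 0.01 (*Galc*), 0.09 (*Cd63*) and 0.13 (*Gaa*). These ranks describe 1 array and carry no test.

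**Figure D3:**
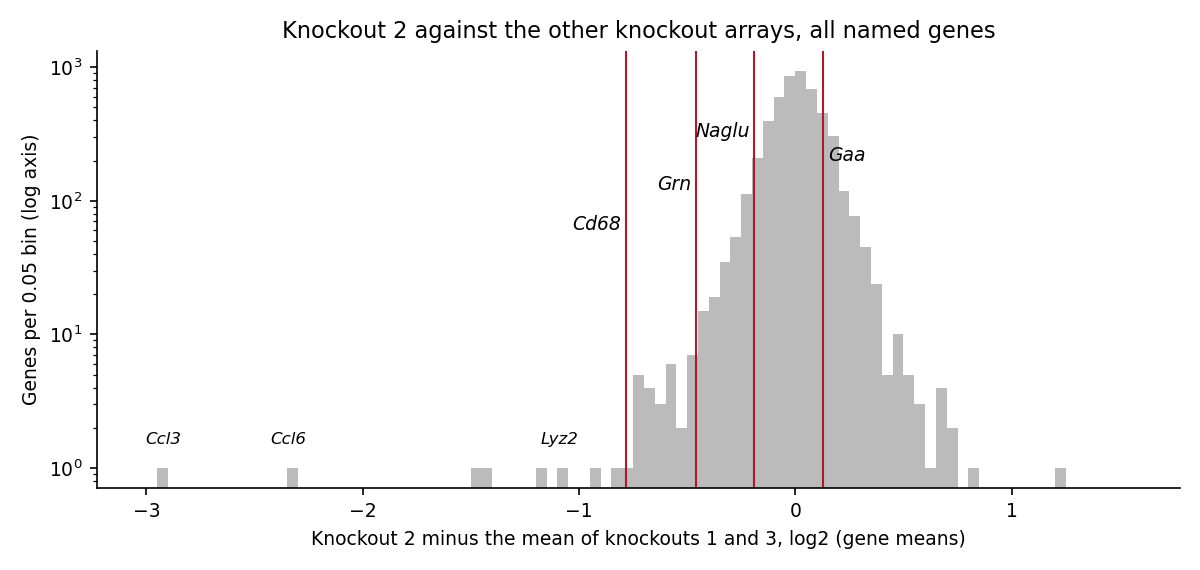
Histogram of the log2 signal of knockout 2 minus the mean of knockouts 1 and 3 for 5017 gene means, with a log count axis. Red lines mark Cd68 at -0.78, Grn at -0.46, Naglu at -0.19 and Gaa at 0.13, and the names at the base mark Ccl3, Ccl6 and Lyz2 at -2.92, -2.34 and -1.09.

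*Cd68* and *Grn* promoters are shown because these had the largest drops of the 8 in knockout 2. Those of *Gaa* and *Naglu* are shown as hydrolase genes of the same chromosome. Knockout 2 was also the lowest array in *Naglu*, at 6.73, with knockout 3 next at 6.84. All 8 genes matched the RefSeq promoter table of GRCm38.p6, in 9 windows from 250 bases before to 50 bases after a start. Capitals mark CACGTG, the E-box core bound by factors such as TFEB that act on lysosomal genes, and GAGGAA with its reverse complement TTCCTC, the core bound by the myeloid factor PU.1. Both strands were searched.
Cd68, chr11:69666121-69666420, minus strand: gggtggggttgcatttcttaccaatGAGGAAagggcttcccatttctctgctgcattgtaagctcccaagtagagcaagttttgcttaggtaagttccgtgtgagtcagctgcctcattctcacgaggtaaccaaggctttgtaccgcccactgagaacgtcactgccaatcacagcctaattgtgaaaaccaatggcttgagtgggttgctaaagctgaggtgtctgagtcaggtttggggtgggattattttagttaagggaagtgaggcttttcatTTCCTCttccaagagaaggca
Grn, chr11:102430257-102430556, plus strand: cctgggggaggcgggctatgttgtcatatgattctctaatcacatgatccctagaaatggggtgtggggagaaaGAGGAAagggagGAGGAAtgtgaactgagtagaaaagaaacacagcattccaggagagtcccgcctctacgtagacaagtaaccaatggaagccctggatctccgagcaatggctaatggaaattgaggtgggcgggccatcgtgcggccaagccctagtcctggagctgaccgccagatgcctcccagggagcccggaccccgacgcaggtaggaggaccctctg
Gaa, chr11:119267713-119268012, plus strand: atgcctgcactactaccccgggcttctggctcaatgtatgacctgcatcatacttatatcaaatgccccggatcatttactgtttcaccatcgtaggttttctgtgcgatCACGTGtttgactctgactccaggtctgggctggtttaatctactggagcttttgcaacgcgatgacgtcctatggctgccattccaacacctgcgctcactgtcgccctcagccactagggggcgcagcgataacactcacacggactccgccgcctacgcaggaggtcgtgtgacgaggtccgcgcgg
Naglu, chr11:101069844-101070143, plus strand: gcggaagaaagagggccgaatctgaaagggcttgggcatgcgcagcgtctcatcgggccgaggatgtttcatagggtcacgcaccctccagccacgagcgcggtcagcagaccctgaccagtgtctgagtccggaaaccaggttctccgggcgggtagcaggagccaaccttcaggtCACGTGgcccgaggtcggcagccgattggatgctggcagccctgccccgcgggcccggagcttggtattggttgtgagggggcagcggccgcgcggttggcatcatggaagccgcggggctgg

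GAGGAA stood at -225 and, as its reverse complement, at 29 in *Cd68*, and at -176 and -164 in *Grn*, counted in bases from the start site to the leftmost base. CACGTG stood at -140 in *Gaa* and at -73 in *Naglu*. Of the other genes, *Cd63* had 2 matches of GAGGAA and 1 window of *Psap* had 1, and the windows of *Npc2* and *Galc* held neither motif. Of 32851 promoter windows of the same length, 28.3% held GAGGAA and 7.15% held CACGTG. A match is a run of letters and not a shown binding site.

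*Npc2* encodes the soluble protein that passes cholesterol to the membrane protein NPC1 inside the lysosome. Its mean over 7 probe sets was 8.36, 8.44 and 8.45 in controls and 8.32, 8.19 and 8.19 in knockouts. All 3 knockouts lay below all 3 controls, as in 8.87% of all genes. The log2 difference was -0.18 (SE 0.057), or 88.1% of the control level, with a 95% interval from -0.32 to -0.05 and an adjusted p of 0.252. The exact two-sided permutation p over the 6 arrays was 0.1, the smallest that 3 against 3 can give.

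Without knockout 2 the log2 difference of the *Npc2* gene mean was -0.16 (SE 0.064, limma adjusted p = 0.411), and over all single arrays left out it ran from -0.23 to -0.16. All 7 probe sets were lower in the knockout, by -0.34 at 10401525 to -0.05 at 10401524, and 7 were still lower without knockout 2. At 10401523, the brightest, the controls had 10.30, 10.41 and 10.25 and the knockouts 10.27, 9.97 and 10.19. The difference there was -0.18, and it was -0.09 without knockout 2. At 10401521 the controls had 7.68, 7.77 and 7.91 and the knockouts 7.43, 7.60 and 7.62. At 3 of the 7 probe sets all knockouts lay below all controls, as at 5.52% of all probe sets, and the smallest adjusted p of the 7 was 0.654.

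*Psap* encodes prosaposin, the precursor of the saposins that help hydrolases reach sphingolipids. Its 14 probe sets had means from 10.37 to 12.01 on the log2 scale, and the gene mean was 11.61, 11.58 and 11.56 in controls and 11.57, 11.54 and 11.55 in knockouts. The log2 difference was -0.03 (SE 0.044, limma adjusted p = 0.779), with a 95% interval from -0.13 to 0.07. Its SD over the 6 arrays was 0.025, and 98.5% of all genes varied more. Of the 14 probe sets 13 were lower, by at most -0.13, at 10363444.

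*Gaa* encodes acid alpha-glucosidase, which breaks down glycogen in lysosomes. The mean of its 20 probe sets was 10.16, 10.15 and 10.18 in controls and 10.12, 10.26 and 10.15 in knockouts, with knockout 2 the highest array. The log2 difference was 0.01 (SE 0.053, limma adjusted p = 0.932) with a 95% interval from -0.11 to 0.14, and it was -0.03 without knockout 2. Single probe sets differed by -0.10 to 0.11, with 15 of 20 higher in the knockout. At 2 of the 20 all knockouts were below all controls, as at 5.52% of all probe sets, and at 1 all were above, as at 7.94%.

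*Galc* encodes galactosylceramidase, the enzyme that degrades the myelin lipid galactosylceramide. The mean over its 18 probe sets was 7.90, 7.81 and 7.96 in controls and 7.87, 7.86 and 7.83 in knockouts, which differed by -0.04 on the log2 scale (SE 0.054, limma adjusted p = 0.808, 95% interval from -0.16 to 0.09). Of its probe sets 8 were lower and 9 higher, from -0.48 at the dimmest, 10401986, to 0.30 at 10401985. At 10401969, the first by ID, the controls had 7.18, 7.04 and 6.95 and the knockouts 6.97, 6.64 and 6.28, a difference of -0.43. At 10401984 the controls had 6.64, 6.43 and 6.46 and the knockouts 6.74, 6.71 and 6.86, a difference of 0.26 (adjusted p = 0.621). All knockouts lay above all controls there, as at 7.94% of all probe sets. At 10401971 (-0.16) all lay below, as at 5.52%. The test for unequal probe sets gave *Galc* the smallest p of the 8 genes, but its limma diffSplice adjusted p was 0.427. By this test 0 of the 8 genes passed, where 0.940% of 4470 genes with at least 2 probe sets did, and at an unadjusted p below 0.05 there was 1, *Galc*, as with 7.54% of those genes. The sign of the *Galc* difference depended on the summary, since the median of its probe sets gave 0.14 (SE 0.098).

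*Naglu* encodes alpha-N-acetylglucosaminidase, which acts on heparan sulfate. Its 6 probe sets had means from 6.49 to 7.73. Their gene mean was 6.85, 6.89 and 7.02 in controls and 6.99, 6.73 and 6.84 in knockouts, a log2 difference of -0.07 (SE 0.080; adjusted p by limma = 0.745, 95% interval from -0.25 to 0.12). Without knockout 2 it was -0.002. Of the 6 probe sets 3 were lower and 3 higher. At 10381214 the controls had 7.02, 6.93 and 6.84 and the knockouts 6.67, 6.38 and 6.67, a log2 difference of -0.36 (SE 0.11) and the smallest adjusted p of the 88 probe sets, 0.589. At 10381212, the brightest, the difference was 0.17, and it was 0.33 without knockout 2 and 0.073 without knockout 3. The median of the 6 probe sets gave -0.21 (95% interval from -0.38 to -0.05, limma adjusted p = 0.417), so the size of the *Naglu* difference depended on the summary.

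*Cd63* encodes a tetraspanin of late endosomes, lysosomes and exosomes. It had 3 probe sets, so its value rests on the fewest measurements of the 8. The gene mean was 7.77, 7.51 and 7.58 in controls and 7.51, 7.60 and 7.52 in knockouts, with control 1 apart from the other 5 arrays. The log2 difference was -0.08 (SE 0.074, limma adjusted p = 0.649, 95% interval from -0.25 to 0.09). It was -0.005 without control 1 and -0.14 without control 2. The median of the 3 probe sets gave -0.25 (95% interval from -0.45 to -0.05, limma adjusted p = 0.421). On every array that median was the value of 10367439, so it is not a separate measurement. At 10367439 the controls had 7.95, 7.92 and 7.88 and the knockouts 7.70, 7.79 and 7.51, a difference of -0.25 (adjusted p = 0.635 among probe sets). All knockouts lay below all controls there, as at 5.52% of all probe sets. At 10367437, the dimmest, the difference was 0.16.

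**Figure D4:**
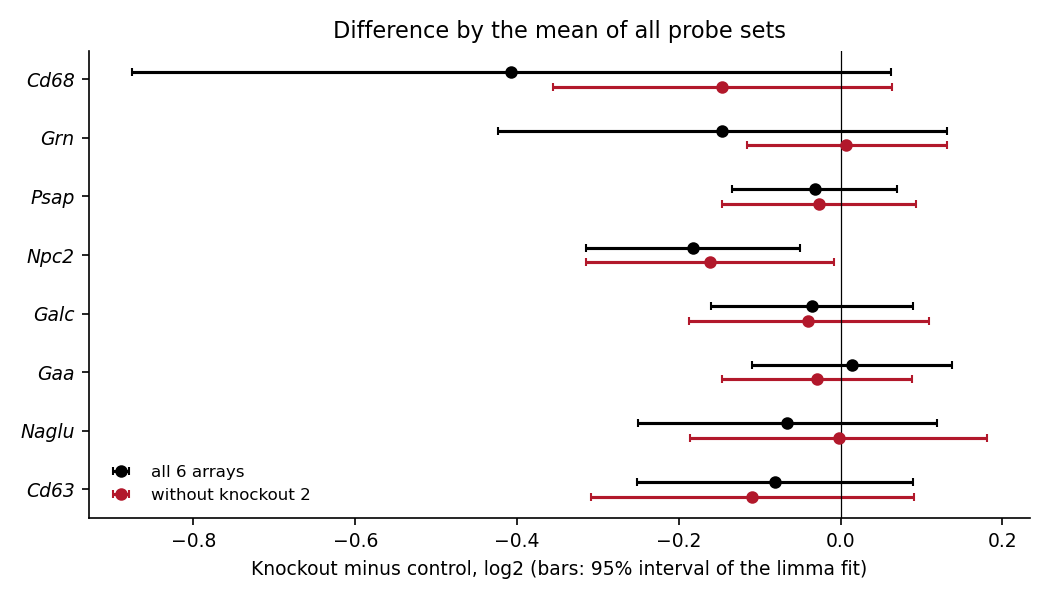
Knockout minus control of the mean over all probe sets of each gene, on the log2 scale, with the 95% interval of the limma fit, for all 6 arrays (black) and without knockout 2 (red). Without knockout 2 the value of Cd68 moves from -0.41 to -0.15 and that of Grn from -0.15 to 0.007, while Npc2 stays at -0.18 and -0.16.

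The other lysosomal genes were taken from 4 lists with 40 measured genes, the 8 included. With limma 0 of the 40 passed in either direction, and at an unadjusted p below 0.05 there were 2 lower and 1 higher, where 6.12% and 7.95% of all genes were. Of 58 genes listed as hydrolases and their activators, 16 were measured, with 13 lower, 3 higher and a median log2 difference of -0.07, or -0.03 without knockout 2. *Lgmn*, the asparaginyl endopeptidase legumain, had 10.04, 10.01 and 9.97 in controls and 9.89, 9.84 and 9.80 in knockouts, a difference of -0.16 (SE 0.049, limma adjusted p = 0.248). All knockouts of *Lgmn* lay below all controls, as in 8.87% of all genes. *Lyz2*, the lysozyme of myeloid cells, had 7.49, 7.56 and 7.68 in controls and 7.34, 6.32 and 7.48 in knockouts, a difference of -0.53 (SE 0.27). On the higher side *Arsb*, an arylsulfatase of dermatan sulfate breakdown, had 0.06 and *Scpep1*, a serine carboxypeptidase, 0.02.

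Of 35 lysosomal membrane genes 9 were measured, with 7 lower and a median of -0.05. *Ostm1*, a subunit of the lysosomal chloride transporter, differed by -0.11, with all knockouts below all controls, as in 8.87% of all genes. *Cd164*, the sialomucin endolyn, differed by -0.05. *Slc38a9*, the arginine sensor of the lysosomal membrane, had 7.83, 7.74 and 7.77 in controls and 8.14, 8.44 and 8.16 in knockouts, a difference of 0.47 (SE 0.084, limma adjusted p = 0.215), and *Ctns*, the cystine transporter, 0.008. Of 24 subunits of the vacuolar ATPase, the proton pump of the lysosome, 5 were measured, with 4 higher and a median of 0.04, among them *Atp6v1d* at 0.11, *Atp6v1g3* at 0.13 and *Atp6v1c2* at -0.17. *Atp6v1g3* and *Atp6v1c2* were dim, with control means of 4.535 and 5.158, below the cut of 5.817 for the dimmest 1 in 3 of tested probe sets. Of 35 genes of sorting to and fusion with the lysosome 10 were measured, 4 lower and 6 higher, with a median of 0.006. In that list *Plekhm1*, an adaptor of lysosome fusion, had 0.13, *Ap3b1* 0.07, *Ap3m1*, like it a subunit of the adaptor complex AP-3, -0.10, and *Gnptab*, which makes the mannose phosphate tag, -0.05.

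Part of the measured microglia genes were lowest in knockout 2, as *Cd68* and *Grn* were. The mean log2 signal of the homeostatic microglia list, of which 4 of 24 genes were measured (*Fcer1g*, *Fcgr3*, *Ptprc* and *Sparc*), was 7.53 to 7.64 in controls and 7.70, 7.10 and 7.59 in knockouts 1 to 3. All 4 were lower in the knockout and all 4 had their lowest value in knockout 2, where 18.8% of all genes did, though *Sparc* was low on all 3 knockout arrays (11.08, 11.01 and 11.03, against 11.18 to 11.29 in controls); without that array 1 of 4 was lower and the median difference turned from -0.14 to 0.10. That of the plaque-associated list, of which 9 of 27 genes were measured, *Cd68* and *Cd63* among them, was 7.30 to 7.37 in controls and 7.38, 6.49 and 7.32 in knockouts. Of these 9, 8 were lower with all arrays and 5 without knockout 2. Knockout 2 was the lowest array in 5 of the 9 (*Ccl3*, *Ccl6*, *Cd68*, *Lilrb4a* and *Lyz2*) and not in *Ccl4*, *Cd63*, *Ctsl* and *Timp2*. *Lilrb4a*, *Ccl4* and *Ptprc* were dim, with control means of 4.05, 5.28 and 5.67. These lie below the cut of 5.817 for the dimmest 1 in 3 of tested probe sets. The largest drops were those of the chemokine genes *Ccl3* and *Ccl6*, at -2.92 and -2.34 on the log2 scale against the mean of knockouts 1 and 3. In RNA of whole brain fewer cells of a type and less RNA per cell cannot be told apart. The part of these markers in the values of *Cd68* and *Grn* was not tested.

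The lists of neurons, oligodendrocytes, endothelial cells and choroid plexus were not lowest in knockout 2. The neuronal list was at 10.34 in knockout 2 and at 10.28 to 10.34 in the others, and *Syt1*, the synaptic calcium sensor, differed by 0.05. The 2 measured oligodendrocyte genes averaged 8.89 in knockout 2 and 8.72 to 8.85 in controls, with *Aspa* at a difference of 0.16. The list of 3 endothelial and pericyte genes (*Rgs5*, -0.11) was at 8.40 in knockout 2 and 8.30 to 8.47 in controls, and that of 2 choroid plexus genes (*Kcnj13*, 0.21) at 8.08 against 8.05 to 8.13. The 5 astrocyte genes averaged 9.84 to 10.03 in controls and 9.70 to 9.87 in knockouts, lowest in knockout 2, with *S100b* at -0.21. *Gfap*, the filament protein of reactive astrocytes, had 9.96, 9.59 and 10.42 in controls and 9.79, 9.02 and 9.71 in knockouts, and was named after its values were seen. Its part in the values of *Cd68* was not tested. The 6 meningeal genes averaged 6.25 to 6.54 in controls and 6.14 to 6.30 in knockouts (*Dpt*, -0.31), and both measured border macrophage genes were lower (*F13a1*, -0.18). *Slc4a1*, the 1 measured red cell gene, was lower by -0.36 and lowest in knockout 2. All 3 of its knockouts lay below all controls, as in 8.87% of all genes. *Dpt* and *Slc4a1* were dim, with control means of 4.25 and 5.34, below the cut of 5.817.

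**Figure D5:**
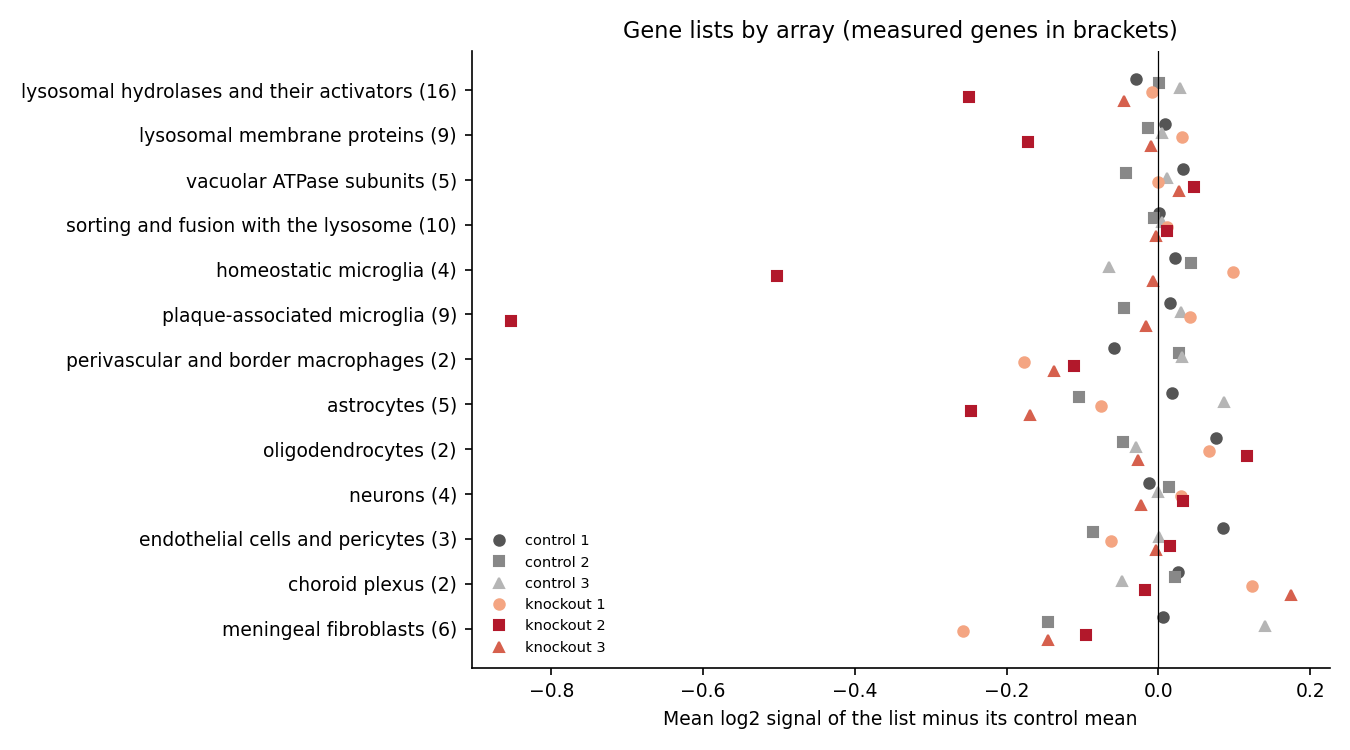
Mean log2 signal of the measured genes of each list on each array, minus the list's control mean; the number of measured genes is in brackets. Knockout 2 (dark red squares) lies far below the other arrays in the lists of homeostatic microglia, at 7.10, and plaque-associated microglia, at 6.49, and is the lowest array for lysosomal hydrolases and lysosomal membrane proteins.

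Likeness of pattern was measured as the root mean square difference between gene means over the 6 arrays, each gene centred on its own mean. The member with the largest SD over the arrays was *Cd68*, and the nearest of all named genes to it were *Ly86* (0.098), which encodes a partner of a toll-like receptor homologue, *Havcr2* (0.11), which encodes the immune checkpoint receptor TIM-3, and *Catspere2* (0.12). *Ly86* had 9.17, 9.06 and 8.98 in controls and 8.96, 8.27 and 8.94 in knockouts. *Havcr2* had 5.67, 5.45 and 5.57 in controls and 5.33, 4.84 and 5.30 in knockouts. All its knockouts lay below all its controls, as in 8.87% of all genes. The nearest gene to *Grn* was *Prss56* (0.036), followed by *Vsir* (0.036), an immune checkpoint gene. *Havcr2* and *Prss56* were dim, with every value below the cut of 5.817 for the dimmest 1 in 3 of tested probe sets. Among the 8 themselves, *Cd68* was nearest to *Grn* (0.19), but *Grn* was nearest to *Naglu* (0.12). The closest pair was *Psap* and *Galc* (0.052), whose values hardly varied.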

How the data were processed

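Expression was measured on 6 one-colour Affymetrix arrays read by exon probe sets. The table holds log2 signals as deposited by the authors. MAS5 is named, without a version, in the submitters' processing notes. The log2 scale follows from the values, all between 1.69 and 14.41; the step that made arrays comparable is not given in the sources. Array medians of tested probe sets lay between 7.04 and 7.09, pairs of arrays correlated between 0.984 and 0.990, and 0 pairs were identical, so signals were used without further normalization. Of 65535 probe sets, 6616 with IDs below the first named one were taken as control features and left out. Medians of these control features were 4.09, 4.16 and 4.11 in controls and 4.27, 4.29 and 4.20 in knockouts, so higher on every knockout array. The reason was not tested. Symbols came from the platform's annotation and were updated through RefSeq (GRCm38.p6): 698 were updated and 13 kept as given. Nearly all of the genes analysed, 4918 of 5017, lie on chromosomes 1, 10, 11, 12 and 13.

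Knockout minus control was fitted with limma 3.58.1 in R 4.3.3 (lmFit and eBayes, two-sided, Benjamini-Hochberg adjustment, threshold 0.05) over all tested probe sets and, separately, over each gene's mean of all its probe sets. Intervals are those of the fit. Differences among the probe sets of a gene were tested with limma's diffSplice; on simulated data it made more false calls than its threshold allows, so its count over all genes may be too high. The number of arrays limits the precision. The 8 genes and the lists were chosen with earlier results of these data known. Named genes were the 8, the 2 others with the smallest unadjusted p in each direction from each lysosome list, the 1 gene of smallest unadjusted p from each cell type list, and the nearest profiles. Other genes of the cell type lists, *Gfap* among them, and those low or high in knockout 2 were named after their values were seen. Alternatives covered normalization, dim probe sets, variance model, array weights, replicate number, single arrays left out, control features, the threshold and the summary of a gene. Signal levels are not compared between genes.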

Additional observations from a re-analysis of the deposited data

How the results depend on the processing

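The counts of lower probe sets and genes, and of list genes without knockout 2, were added after seeing the data. In every alternative run, 0 member probe sets, 0 gene means of the 8 and 0 of the 8 in the test of unequal probe sets passed the threshold. The count of lower member probe sets, 58, lay between 57 and 65. The count for *Grn*, 12, ran from 5 to 12 with single arrays left out, the 5 being without knockout 2. Of 216 values of the 8 genes under alternatives, 207 kept their sign. The 9 that turned sign are these. *Gaa*, 0.014, was -0.016 after quantile normalization, -0.006 after median centring, -0.038 by the median of its probe sets and between -0.029 (without knockout 2) and 0.043 with single arrays left out. *Galc* was 0.135 by the median of its probe sets and ran from -0.074 to 0.001 (without control 3) with single arrays left out, and its brightest probe set ran from -0.068 to 0.022 (without knockout 1). The brightest probe set of *Psap* ran from -0.042 to 0.013 (without control 3), and *Grn* from -0.229 to 0.007 (without knockout 2). The drop of *Grn* in knockout 2 was -0.60 by the median of its probe sets. The replicate numbers were not used as pairs: deviations of same-numbered arrays correlated at 0.037, -0.070 and -0.100, values that cannot exclude pairing. With the number as a block, the *Cd68* difference was -0.407 (SE 0.124, 95% interval from -0.715 to -0.099, limma adjusted p = 0.312). That interval excluded 0, unlike the interval of the main fit. With the same block, 0 member probe sets and 0 members passed, and over all probe sets the count went from 3 to 0. The cause was not tested. Of the 88 probe sets 87 were above the dimmest 1 in 3, and with 3 arrays a group the 95% intervals were as wide as -0.88 to 0.06 for *Cd68*.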

Other observations

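Knockout 2 stood apart in a small group of genes, chosen here after their values were seen. In 18 of 5017 gene means it lay more than 0.5 on the log2 scale below the lowest of the other 5 arrays, where control 1, control 2, control 3, knockout 1 and knockout 3 did so in 0, 1, 1, 0 and 2 genes. *Cd68* was the 1 member among the 18. Of the 40 measured genes of the lysosome lists, 4 were among them: *Cd68*, *Lyz2*, *Ctse*, which encodes cathepsin E, and *Slc11a1*, a metal transporter of phagosomes. Of the 13 measured genes of the microglia lists, 6 were among them: *Ccl3*, *Ccl6*, *Lyz2*, *Cd68*, *Ptprc* and *Fcer1g*. The chemokine gene *Ccl3* had 7.15, 7.25 and 7.12 in controls and 7.70, 4.72 and 7.58 in knockouts, and *Ccl6* had 7.26, 7.41 and 7.16 against 7.50, 4.99 and 7.16. *Ctse* had 5.86, 6.04 and 5.84 in controls and 6.45, 4.74 and 5.91 in knockouts, and *Slc11a1* had 6.79, 7.05 and 6.89 against 7.10, 5.92 and 7.07. In all 4 of these genes knockout 1 was above all 3 controls.

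On the high side knockout 2 was not alone: it lay more than 0.5 above the highest of the other arrays in 4 genes and control 3 did so in 5, with 0 for each of the other arrays. The 4 were *Gh*, *Prl*, *Mcmdc2* and *Ogfrl1*. *Gh* and *Prl* encode the pituitary hormones growth hormone and prolactin. *Gh* had 5.71 in knockout 2 and at most 4.94 elsewhere. *Gh* and *Mcmdc2* were dim, with control means of 4.76 and 3.85, below the cut of 5.817 for dim probe sets. *Prl* had 7.28 in knockout 2, 6.65 in control 1 and 4.81 to 5.59 on the other 4 arrays.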
